A study of Mus musculus with 12 samples.

Results

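The genes for the proteins of the cytosolic ribosome were examined in bone marrow-derived macrophages (BMDMs) treated with olaparib or MNA. They were chosen by symbol: Rpsa, Rplp0, Rplp1, Rplp2, and every Rps or Rpl symbol made of a number with at most 1 further letter out of a, x and l, leaving out names that carry -ps and genes with a mean under 50 counts over the 12 libraries. This gave 76 genes out of 35275 listed, of which 31 encode proteins of the small subunit and 45 proteins of the large subunit. All 76 passed the filter on low counts and were among the 12849 genes tested. Another 6 symbols matched but lay under the count minimum. These were Rpl24, with a mean of 6.75 counts, the tissue-restricted copies Rpl3l, Rpl10l and Rpl39l, with means of 2.25, 0 and 0.75 counts, and the annotated pseudogenes Rpl6l and Rps4l, with means of 27 and 24.2 counts. Why Rpl24 had so few counts was not tested, and its sequence overlap with other genes was not computed.

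The ribosome reads mRNA on its small subunit and joins amino acids on its large subunit, and most of its proteins are needed in equal number. Cells make ribosomal protein mRNAs in very large amounts, and most of them begin with a run of pyrimidines, the 5′ terminal oligopyrimidine (TOP) tract, through which mTOR and the RNA-binding protein LARP1 set how well they are translated. Because that control acts on translation and on mRNA storage, the level of these mRNAs is only 1 side of ribosome production. In macrophages some of these proteins are also known for roles away from the ribosome, such as RPL13A in silencing of inflammatory mRNAs.

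RNA was sequenced from wildtype mouse BMDMs, macrophages grown from bone marrow in IL4, IL10 and MCSF, in 3 groups of 4 libraries. All cells received these cytokines and were treated for 6 days with DMSO, the solvent control, with olaparib, a PARP inhibitor, or with MNA, methyl-nicotinamide, a derivative of NAD metabolism. The comparisons ask how each treatment changed the macrophages against DMSO, and how the treatments differed from each other. Nothing in the labels ties a library to a separate animal, so p-values measure the spread between these libraries.

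Libraries held 21146291 to 31446849 counts on genes. Levels are given in CPM, counts per 1000000 counts of the TMM-scaled library. Macrophage markers summed to 4472 to 5730 CPM in DMSO, 8919 to 10699 with olaparib and 4106 to 7579 with MNA, and B cell, stromal and eosinophil or mast cell markers to at most 6.02. Erythroid and neutrophil markers reached 55.7 and 65.8 CPM in MNA replicate 4 and at most 3.89 and 10.1 in DMSO, and cell cycle genes summed to 250.3 to 313 CPM in DMSO, 402 to 500.4 with olaparib and 272 to 515 with MNA. What these differences contribute to the values below was not tested. MNA replicate 2 lay near the DMSO libraries, with macrophage markers at 4106 and cell cycle genes at 272 CPM, and the MNA counts are therefore given with and without it. Leaving out an MNA library because it lies near DMSO favors a larger difference and a smaller spread. Counts without it are thus no separate support for a change. MNA replicate 1 also stood apart here. It had the lowest level of all 12 libraries for 61 of the 76 genes, and it lay below all DMSO libraries for 65 of them, against 34 genes for MNA replicate 3, 34 for replicate 4 and 5 for replicate 2.

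Ribosomal protein genes are known for the TOP tract at their starts, so the start sequences are shown here for members that the comparisons turn on. RefSeq start windows (GRCm38.p6) were given for 56 of the 76 genes. An unbroken run of at least 5 letters C and T, holding at least 1 C and overlapping the 5 bases on either side of the annotated start, was found on the coding strand of 32 of them (57.1%), and a run of at least 7 in 24 (42.9%). Over all 27025 genes with a window the shares were 31.1% and 13.3%, and over 67 mitochondrial ribosomal protein genes 37.3% and 13.4%. On the other strand the shares were 14.3% and 3.57% for the 56 genes and 32.9% and 14.4% for all genes. The windows below give 15 bases on each side of the annotated start, 5′ to 3′ on the coding strand, for genes called in the comparisons further on, and capitals mark the run found. The run may end up to 5 bases before the start or begin up to 5 bases after it, and a window without capitals says only that no such run was found there.
Rps27l, chr9:66946071-66946100, plus strand: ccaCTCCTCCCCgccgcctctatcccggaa
Rpl10a, chr17:28328456-28328485, plus strand: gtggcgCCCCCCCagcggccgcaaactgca
Rpl22, chr4:152325711-152325740, plus strand: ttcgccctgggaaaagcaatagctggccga
Rpl37a, chr1:72711245-72711274, plus strand: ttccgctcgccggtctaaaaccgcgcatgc
Rps19, chr7:24884577-24884606, plus strand: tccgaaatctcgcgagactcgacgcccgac
Rpl13a, chr7:45128731-45128760, minus strand: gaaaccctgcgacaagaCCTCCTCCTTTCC
Rpl31, chr1:39367836-39367865, plus strand: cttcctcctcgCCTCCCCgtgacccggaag
Rps15a, chr7:118116133-118116162, minus strand: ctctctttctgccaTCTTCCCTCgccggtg
Rps2, chr17:24720048-24720077, plus strand: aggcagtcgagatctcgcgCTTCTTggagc
Runs were thus present near the annotated starts of genes called higher with olaparib (Rps27l and Rpl10a) and of genes called lower with MNA (Rpl13a, Rpl31 and Rps15a), and none was found there for Rpl22, Rpl37a or Rps19, which were called in those same comparisons.

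The 76 genes were among the most abundant transcripts of the DMSO macrophages. Their mean level ranged from 10.7 to 1278 CPM with a median of 378, against a median of 19.4 over all genes tested, and 51 of them were among the 500 genes of highest CPM. The median coefficient of variation over the DMSO libraries was 7.31%, with 36.6% for Rpl23a, 34.8% for Rps29 and 33.8% for Rpl35. Over all genes tested the median was 9.09%, but their levels were mostly far lower and their counting error larger. Other genes of like level were not compared. Per length of the annotated principal transcript, the highest levels in DMSO were those of Rplp1, a stalk protein that binds translation factors, at 1072 ± 111 RPKM (CPM divided by the length in kilobases, SD, n = 4), of Rpl19 at 1009 ± 41.6 and of Rplp0, the base of the stalk, at 941 ± 39.7. The lowest were those of Rpl23a at 19.2 ± 7.01, of Rpl35 at 27.0 ± 9.12 and of Rps15a at 64.1 ± 1.72 RPKM. How well each gene can be counted varies within the family. The share of 31-base words that a gene's transcripts have in common with other genes had a median of 27.8% over the family and exceeded 10% for 67 of the 76 genes, with a median of 23.5 other genes sharing any, and the aligner's gene counts leave out reads that map to several places. This share was 83.0% for Rpl23a and 88.8% for Rpl35. Much of it was with a gene that overlaps on the opposite strand, as words of both strands were compared. Of their words, 53.3% were shared with Tlcd1 and 60.7% with Wdr38, respectively. Such words lie at the same place in the genome, and the strand setting behind the counts is not given. What these overlaps contribute to the low levels was not tested. For Rps15a the share was 6.98%, and its low level per length goes with an annotated principal transcript of 5179 bases for a protein of 130 residues. The share of words is not the share of reads lost, as the reads were longer than 31 bases. Levels per length are uncertain for members with much shared sequence, as reads that also match copies are left out. This holds for the highest levels too, as the share was 75.1% for Rplp1, 58.8% for Rpl19 and 42.8% for Rplp0. Rpl36, at 94.1%, had 521 ± 76.5 RPKM in DMSO, so a high share did not always go with a low level. In 29 of the 76 genes (38.2%) snoRNA genes lie within the gene on the same strand, 56 snoRNAs in all, against 1.89% of 10281 protein-coding genes at the same count minimum.

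Ribosomal protein genes together took about the same share of the counts in DMSO and olaparib libraries and a lower share in 3 of the MNA libraries. They held 3.21%, 3.15%, 2.97% and 2.89% of all gene counts in DMSO replicates 1 to 4, and 3.31%, 3.15%, 2.98% and 3.21% in olaparib replicates 1 to 4. In MNA replicates 1 to 4 they held 2.41%, 3.11%, 2.81% and 2.82%. The olaparib and DMSO ranges overlapped, and MNA replicates 1, 3 and 4 lay below every DMSO library while replicate 2 lay among them. In these bulk samples fewer cells of a type and less RNA per cell cannot be told apart. Counts on small-subunit genes divided by counts on large-subunit genes came to 0.689 to 0.703 in DMSO, 0.666 to 0.674 with olaparib and 0.669 to 0.697 with MNA, where replicates 1 and 2 (0.692 and 0.697) lay in the DMSO range and replicates 3 and 4 (0.669 and 0.670) in that of olaparib.

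**Figure D1:**
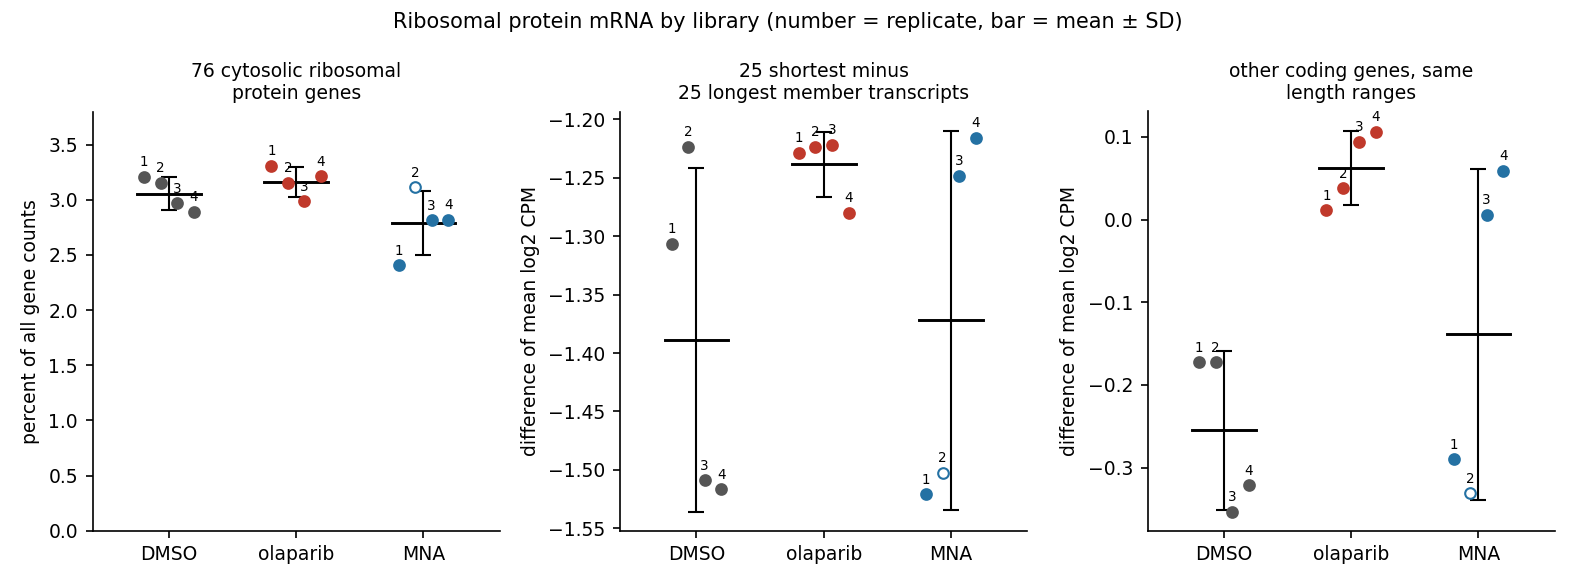
Each point is 1 library, numbered by replicate, with the group mean as a bar and the SD as a whisker (n = 4), and MNA replicate 2 is an open circle. The left panel gives the percent of all gene counts on the 76 genes, from 2.41% in MNA replicate 1 to 3.31% in olaparib replicate 1, and the other panels give the difference of mean log2 CPM between short and long transcripts for the 76 genes and for other coding genes, on axes that do not start at 0, with DMSO replicates 3 and 4 and MNA replicates 1 and 2 lowest in both.

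In olaparib-treated macrophages 6 of the 76 genes rose against DMSO and none fell. Of all genes tested, 14.3% were called higher and 12.8% lower in this comparison, and the family's 6 of 76 lay under that background. The 6 were Rps14, Rpl37a, Rps27l, Rpl22, Rpl10a and Rpl32, with log2 fold changes of 0.25 to 0.58. Over the 76 genes the median log2 fold change was 0.07, with 56 positive values, against 0.004 over all genes tested, and the median size of the change without its sign was 0.11 against 0.24. The groups did not overlap for 16 members with higher and 6 with lower olaparib values, where 20.7% and 20.3% of all genes were so separated. An unadjusted p under 0.05 was found for 16 members, against 41.1% of all genes, and DESeq2 called 10 higher and 1 lower, against 16.8% and 15.2%. The main fit did not use the replicate number, and the labels do not say what it marks. With the number as a block, 2 of the 6 genes stayed called, Rps14 (adjusted p = 0.00992) and Rpl37a (adjusted p = 0.0231). In that fit 15.4% of all genes were called higher. Without MNA replicate 2, which enters the shared estimate of the spread, 13 members were called higher and 3 lower, against 22.5% and 21.2% of all genes. The last 3 included Rps12 (log2 fold change -0.17, adjusted p = 0.0329) and Rps2 (-0.12, adjusted p = 0.0451).

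Rps14, a small-subunit protein whose loss underlies the anemia of the 5q- syndrome, had 414, 361, 399.96 and 367 CPM in DMSO and 471, 457, 458 and 471 with olaparib. All olaparib libraries lay above all DMSO libraries. The log2 fold change was 0.27 ± 0.06 (SE, adjusted p = 0.00754), and the call held in all 12 fits that omit 1 library. Rpl37a (ENSMUSG00000046330, GRCm38 chr1:72711290-72713813), a small zinc-binding protein of the large subunit, had 162, 169.9, 141 and 134 CPM in DMSO, 237, 219.7, 241 and 212 with olaparib and 171, 131, 215 and 222 with MNA. Its olaparib values all exceeded the DMSO values, and among the MNA libraries replicate 2 was below all of DMSO and the other 3 above it. The log2 fold change against DMSO was 0.58 ± 0.14 with olaparib (adjusted p = 0.0122), again in all 12 of those fits. Of the words of Rps14 and Rpl37a, 11.7% and 28.5% were shared with other genes.

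Rps27l, a copy of Rps27 that is known as a target of p53 and a binder of MDM2, had 72.4, 71.8, 60.7 and 61.4 CPM in DMSO and 79.9, 77.7, 81.1 and 87.6 with olaparib. The groups did not overlap, with a log2 fold change of 0.29 ± 0.09 (adjusted p = 0.0319). Rpl22, a large-subunit protein that also binds RNA outside the ribosome and is needed for T cell development, had 149, 139, 139 and 128 CPM in DMSO and 166, 161, 171 and 166 with olaparib. These groups did not overlap either, the log2 fold change was 0.26 ± 0.08 (adjusted p = 0.0362), and only 6.79% of its words were shared. Rpl10a lay at 365 to 458 CPM in DMSO and 461 to 499 with olaparib (log2 fold change 0.25 ± 0.09, adjusted p = 0.0492). Rpl32 lay at 329 to 382 and 426 to 454 CPM (0.26 ± 0.09, adjusted p = 0.0495). Unlike those of Rps14 and Rpl37a, these 4 calls were lost with some libraries left out: taking 1 out at a time, Rps27l stayed called in 7 of 12 fits, Rpl22 in 5, Rpl10a in 3 and Rpl32 in 2. Adjusted p-values without 1 library reached 0.094 for Rps27l, 0.104 for Rpl22, 0.136 for Rpl10a and 0.139 for Rpl32. The libraries whose omission ended a call were DMSO or olaparib libraries and, for Rpl10a and Rpl32, MNA replicates 3 and 4.

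The largest log2 fold change of the family was that of a gene that was not called. Rps29, the shortest small-subunit protein at 56 residues, had 132, 177, 95.4 and 82.5 CPM in DMSO and 189.7, 192, 196 and 179.5 with olaparib. Every olaparib library lay above every DMSO library, but DMSO replicate 2 came close to the lowest of them while replicates 3 and 4 were far below. The log2 fold change was 0.64 ± 0.27 (adjusted p = 0.0995). Rpl38, Rps27 and Rps21 followed at 0.43 ± 0.22, 0.40 ± 0.15 and 0.39 ± 0.17 (adjusted p = 0.171, 0.0654 and 0.0947). Rpl38 is known for its part in translating Hox mRNAs, and its DMSO values of 105, 124, 66.9 and 69.7 CPM overlapped the olaparib values of 134, 119, 119 and 121. At the other end, Rps12 was lowest at -0.16 ± 0.10, and Rplp0, Rps15a and Rpsa had -0.13 to -0.12, and none of these was called with all 12 libraries (adjusted p = 0.178 to 0.348). No member moved by as much as 1 log2 unit in any comparison.

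**Figure D2:**
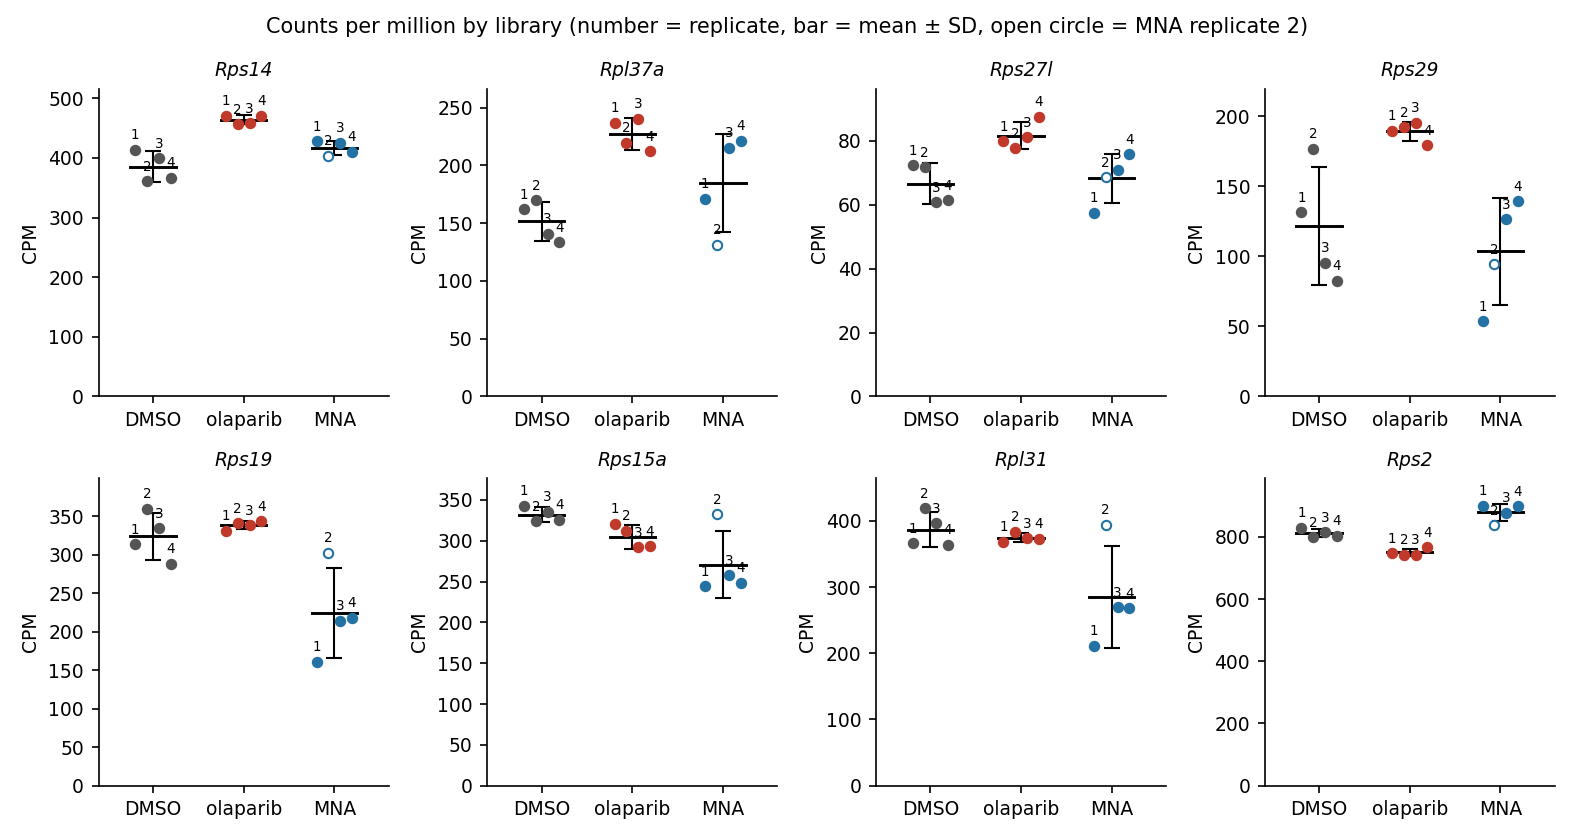
Each panel gives the CPM of 1 gene in each library, numbered by replicate, with the group mean as a bar and the SD as a whisker (n = 4) and an axis that starts at 0. Olaparib libraries lie above all DMSO libraries for Rps14, Rpl37a, Rps27l and Rps29, and MNA replicate 2, the open circle, lies apart from the other MNA libraries for Rps19, Rpl31 and Rps15a.

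The members with large olaparib values were mostly those with short transcripts. Across the 76 genes the log2 fold change of olaparib against DMSO fell with the log of transcript length with a Pearson r of -0.40 (Spearman rho -0.35), and across 11741 other tested coding genes r was -0.11. These are correlations across genes of the same libraries and describe those libraries. Of all genes tested, 14.3% were called higher and 12.8% lower in this comparison. The 25 members with the shortest transcripts (up to 732 bases) lay at a median of 0.17 on the log2 scale and held 3 genes called higher. The 25 with the longest (1049 bases or more) had a median of 0.06 with 1 called higher. Of 230 other tested coding genes in the length range of the short members, 60 were called higher and 5 lower, with a median of 0.25. The balance of short against long members also split the libraries within 2 of the groups. The mean log2 CPM of the 25 shortest minus that of the 25 longest was -1.31 and -1.22 in DMSO replicates 1 and 2 but -1.51 and -1.52 in replicates 3 and 4. It was -1.52 and -1.50 in MNA replicates 1 and 2 but -1.25 and -1.22 in replicates 3 and 4, and -1.28 to -1.22 with olaparib. The same difference over 127 short and 5960 long other coding genes was -0.17 in DMSO replicates 1 and 2 and -0.35 and -0.32 in replicates 3 and 4. It was -0.29 and -0.33 in MNA replicates 1 and 2, 0.006 and 0.059 in replicates 3 and 4, and 0.01 to 0.11 in the olaparib libraries. Thus DMSO replicates 3 and 4 and MNA replicates 1 and 2 lay lowest in this balance, for members and for other genes. Over the other genes DMSO replicates 1 and 2 also lay below every olaparib library and below MNA replicates 3 and 4. The labels give no preparation date or batch for these libraries. The part of these differences in the values of Rps29, Rpl38, Rps27, Rps21 and other short members was not tested. For MNA against DMSO, r with length was -0.02. For olaparib against MNA it was -0.34 across the members and -0.06 across other coding genes. Without MNA replicate 2 the r of olaparib against MNA was -0.21 across the members.

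**Figure D3:**
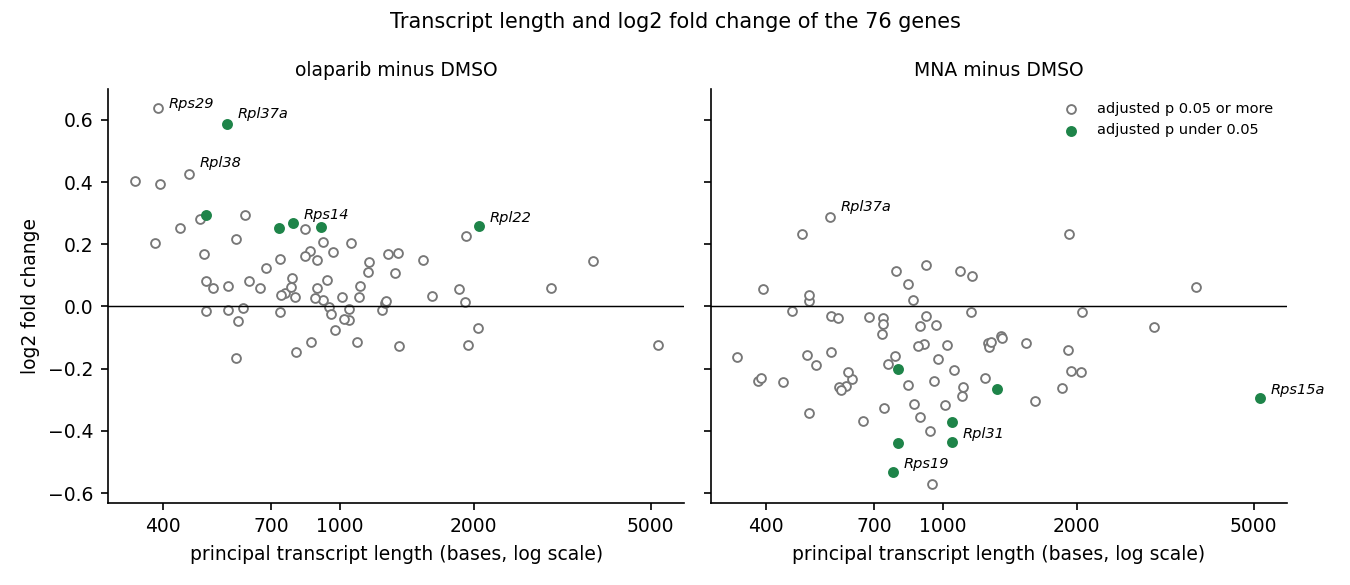
Each point is 1 of the 76 genes, with the length of its principal transcript on a log axis and its log2 fold change against DMSO, filled where the adjusted p was under 0.05. Values for olaparib (left) are highest among the shortest transcripts, such as Rps29 at 390 bases and 0.64, while those for MNA (right) lie mostly below 0 at every length.

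In MNA-treated macrophages 7 of the 76 genes fell against DMSO and none rose, where 12.3% of all genes were called lower and 16.3% higher. They included Rps19, Rpl31, Rpl13a, Rps15a, Rpl17 and Rps27a. The median log2 fold change of the family was -0.16, with 13 positive values, and 24 members had an unadjusted p under 0.05, against 44.8% of all genes. The groups did not overlap for 1 member with higher MNA values, Rps2, and 1 with lower values, Rpl19, where 6.24% and 6.12% of all genes were so separated. DESeq2 called 17 members lower and 1 higher, against 15.7% and 18.9% of all genes. These counts changed with single libraries: 38 members were called lower without MNA replicate 2, and none when DMSO replicate 2 or 3, or any MNA library but replicate 2, was left out.

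Without MNA replicate 2, set aside for its likeness to DMSO, 38 members were called lower and 5 higher, against 26.9% and 27.2% of all genes. The median of the family was then -0.19, and the 3 MNA libraries lay below all DMSO libraries for 31 members and above for 2, where 27.2% of all genes were separated in either direction. Large-subunit genes gave 21 of the lower calls and small-subunit genes 17. Since MNA replicate 1 was the lowest library for most members, the fit was also run without MNA replicates 1 and 2, an alternative chosen after the values were seen. From MNA replicates 3 and 4 alone, which are assumed to vary like the other groups, 27 members were called lower and 6 higher, against 24.5% and 25.6% of all genes, with a median of -0.10. Of the 9 members with under 10% of their words shared, 7 were called lower without MNA replicate 2 and 0 higher.

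Rps19 (ENSMUSG00000040952, GRCm38 chr7:24884371-24889806), a small-subunit protein and the gene most often mutated in Diamond-Blackfan anemia, showed the largest fall among the called genes. It had 313, 359.6, 334 and 288 CPM in DMSO, 331, 341, 338 and 344 with olaparib, and 161, 302, 214 and 218 with MNA. MNA replicates 1, 3 and 4 lay below every DMSO and olaparib library, and replicate 2 lay within the DMSO range. The log2 fold change against DMSO was -0.53 ± 0.15 (adjusted p = 0.0245), and -0.71 without replicate 2 (adjusted p = 3.94e-05). Of the words of Rps19, 7.64% were shared.

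Rpl31, a protein near the nascent peptide exit, had 366, 419, 396 and 364 CPM in DMSO and 212, 394, 269 and 268 with MNA. Only MNA replicate 2 overlapped DMSO, and the log2 fold change was -0.44 ± 0.14 (adjusted p = 0.0419), or -0.63 without that library. The gene overlaps Tbc1d8 on the opposite strand and shares 42.8% of its words with other genes, 22.6% with Tbc1d8. Rpl13a, the protein of the inflammatory mRNA-silencing complex, had 822, 944, 935 and 801 CPM in DMSO and 537, 873, 642 and 653 with MNA (log2 fold change -0.37 ± 0.12, adjusted p = 0.0422, and -0.52 without replicate 2). Within the gene lie 4 snoRNA genes. For Rps15a the DMSO libraries lay at 324 to 343 CPM and the MNA libraries at 245, 333, 258 and 249 (-0.29 ± 0.09, adjusted p = 0.0342, and -0.41 without replicate 2). Rps27a, made as a fusion to ubiquitin, lay at 383 to 406 CPM in DMSO and at 314, 394, 327 and 334 with MNA (-0.20 ± 0.07, adjusted p = 0.0491, and -0.28 without replicate 2). Rpl17 lay at 543 to 579 and at 411, 578, 446 and 442 CPM (-0.27 ± 0.09, adjusted p = 0.0497, and -0.38 without replicate 2). In each of these genes MNA replicate 2 alone reached the DMSO values. With 1 library left out at a time, Rps19 stayed called in 7 of 12 fits, Rps15a in 5, and Rpl31, Rpl13a, Rps27a and Rpl17 in 1 each, the fit without MNA replicate 2.

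The 5 members called higher without MNA replicate 2 were Rpl37a (log2 fold change 0.42, adjusted p = 0.00288), Rpl15 (0.30, adjusted p = 0.0243), Rpl36a (0.29, adjusted p = 0.0434), Rpl7a (0.17, adjusted p = 0.0487) and Rps2 (0.13, adjusted p = 0.0283). Rpl15, which is needed for early steps of large-subunit assembly, had 305, 281, 261 and 245 CPM in DMSO and 268, 274, 375 and 366 with MNA. Its high values were those of replicates 3 and 4, and the groups overlapped. Rps2, a protein near the mRNA entry site, had 829.7, 799, 815 and 804 CPM in DMSO, 747, 742, 742 and 767 with olaparib and 899, 838, 878 and 898 with MNA. The 3 groups did not overlap at all for Rps2, with MNA highest and olaparib lowest, and MNA replicate 2 was the MNA library nearest to DMSO. Rps2 shares 48.8% of its words, mostly with pseudogenes, and overlaps Snhg9 on the opposite strand. The member with the most negative value with all 12 libraries was not called: Rpl35 had 33.0, 32.7, 15.8 and 20.8 CPM in DMSO and 10.4, 16.7, 20.1 and 21.5 with MNA (-0.57 ± 0.25, adjusted p = 0.0966), with overlapping groups. Rps23 had -0.40 ± 0.17 (adjusted p = 0.085).

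**Figure D4:**
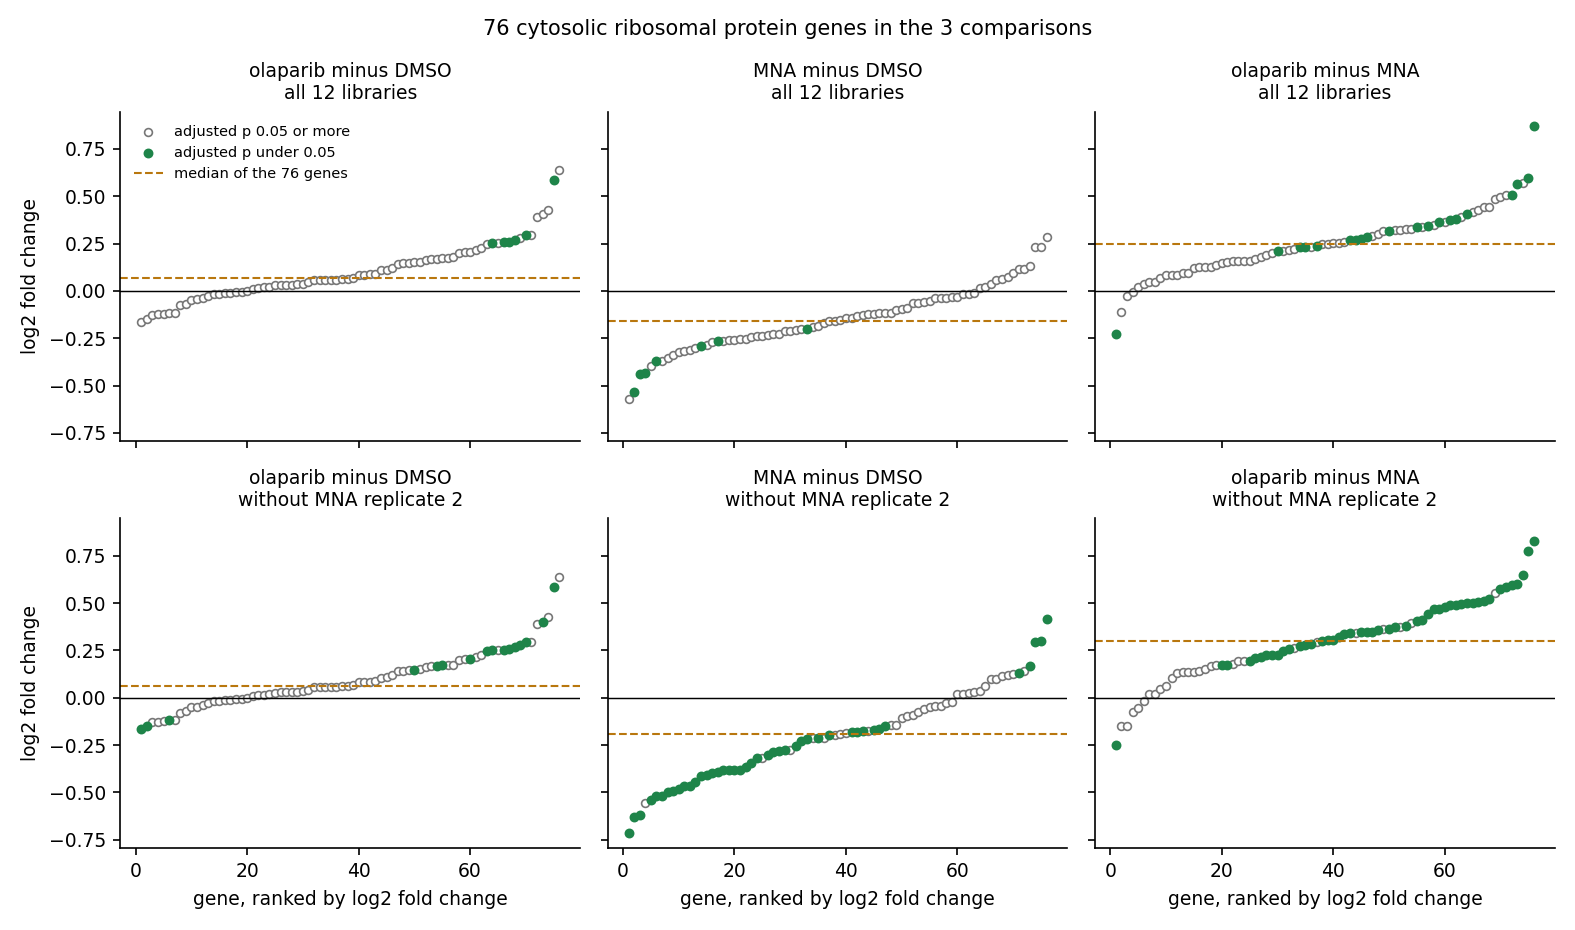
Log2 fold changes of the 76 genes, ranked within each panel, with all 12 libraries (top) and without MNA replicate 2 (bottom), filled where the adjusted p was under 0.05, and the median as a dashed line. For MNA minus DMSO 7 points are filled at the top, while at the bottom 38 are filled below 0 and 5 above, and for olaparib minus MNA nearly all points lie above 0 in both rows.

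Between the treatments, 19 of the 76 genes were higher with olaparib than with MNA and 1 was lower, where 10.9% of all genes were called in each direction. The median log2 fold change was 0.25, with 72 positive values. Olaparib libraries lay above all MNA libraries for 32 members and below for 1, against 11.5% and 9.69% of all genes. Without MNA replicate 2, 47 members were higher and 1 lower, against 21.5% and 20.7% of all genes, with a median of 0.30, and the groups were separated for 57 and 1, against 23.5% and 22.8%. Without MNA replicates 1 and 2, 36 members were higher and 3 lower, against 19% and 20.2% of all genes. The member called lower with all 12 libraries was Rps2, at -0.23 ± 0.05 (adjusted p = 0.0118).

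Among the 19, the largest differences were those of Rps29 (0.87 ± 0.27, adjusted p = 0.0413), Rps19 (0.60 ± 0.15, adjusted p = 0.0138), Rps27 (0.56 ± 0.15, adjusted p = 0.0206) and Rpl30 (0.51 ± 0.13, adjusted p = 0.0182). The transcripts of Rps29 and Rps27 are short, at 390 and 345 bases, and those of Rps19 and Rpl30 have 774 and 886. The part of the balance of short against long transcripts in these differences was not tested. Rps29 had 53.7, 94.6, 127 and 139.6 CPM with MNA, all below the olaparib values of 179.5 to 196. Rpl30, which also binds RNA to guide selenocysteine insertion, had 38.5, 66.3, 50.1 and 52.6 CPM with MNA and 70.6, 74.9, 73.4 and 75.9 with olaparib. The groups did not overlap for Rps29 or Rpl30, and MNA replicate 2 was the MNA library nearest to olaparib for Rpl30 but not for Rps29. The other genes called higher were Rps9, Rps18, Rps24, Rps25, Rps27a, Rpl3, Rpl4, Rpl9, Rpl10a, Rpl17, Rpl19, Rpl22, Rpl23, Rpl28 and Rpl32. Of the 20 calls, Rps2, Rps19, Rpl30, Rpl32 and Rpl10a were the 5 that held in all 24 alternatives, and Rps24, Rpl9 and Rpl28 held in only 1 of the 12 fits with a library left out.

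By role, no member of the ribosomal stalk was called against DMSO with all 12 libraries. The stalk proteins Rplp0, Rplp1 and Rplp2, Rpl12, which sits at its base, and Rpsa, a small-subunit protein once described as a laminin receptor, had log2 fold changes of -0.13 to 0.17 against DMSO, with none called. With MNA they had -0.34 to -0.06, with none called, and without MNA replicate 2 4 of the 5 were called lower, where 26.9% of all genes were. Rplp1 had 485, 573, 591 and 489 CPM in DMSO and 319.8, 569, 390.3 and 409.5 with MNA. Rpl12 had 628, 642, 689.9 and 682 CPM in DMSO and 492, 742, 508 and 511 with MNA, so that replicate 2 was the highest of these 8 libraries and the others the lowest. For Rplp2 the olaparib values of 339.6 to 356 CPM all exceeded the DMSO values of 282 to 324 (0.17 ± 0.10, adjusted p = 0.221).

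Among the ribosomal proteins known to bind MDM2, the ligase that removes p53, a group of 5 was followed, namely Rpl5, Rpl11, Rpl23, Rps7 and Rps27l. Against DMSO, olaparib raised Rps27l, where 14.3% of all genes were called higher, and the olaparib values of Rpl11 and Rpl23 lay above all DMSO values without being called (0.25 ± 0.09, adjusted p = 0.0681, and 0.20 ± 0.12, adjusted p = 0.227). Rpl11 had 261, 263, 240.1 and 228 CPM in DMSO and 296, 285, 295 and 302 with olaparib, and it was called without MNA replicate 2 (adjusted p = 0.0295). Rpl5 and Rps7 had -0.07 ± 0.09 and -0.02 ± 0.10. Rpl5 and Rpl11 bind MDM2 together with 5S rRNA. With MNA none of the 5 was called, and without MNA replicate 2 Rpl5 (-0.30), Rpl23 (-0.29) and Rps7 (-0.37) were called lower, against 26.9% of all genes.

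A group of members with a known paralogue was Rps27, Rps27l, Rpl3, Rpl10, Rpl22, Rpl36a, Rpl39 and Rps4x. Of these 8, olaparib raised Rps27l and Rpl22, against 14.3% of all genes, and the median was 0.27. With the replicate block neither was called. With MNA none of the 8 was called, and without MNA replicate 2 1 was called higher and 1 lower, against 27.2% and 26.9% of all genes. Rps27 and Rps27l encode nearly alike proteins, and Rps27 lay at 134 to 187 CPM in DMSO and 199 to 225 with olaparib. The copy of Rpl22, Rpl22l1, which the symbol rule leaves out, also rose, from 28.0 ± 2.59 to 40.5 ± 2.91 CPM (SD, n = 4, log2 fold change 0.53 ± 0.12, adjusted p = 0.00696). Rpl3 lay at 335 to 404 CPM in DMSO and 383 to 433 with olaparib (0.17 ± 0.07, adjusted p = 0.0767), and its muscle copy Rpl3l at 1 to 4 counts in any library. Rpl10, Rpl39 and Rpl36a had 0.18 ± 0.08, 0.29 ± 0.17 and 0.28 ± 0.12, and Rps4x -0.08 ± 0.08, none of them called. Of the members known for roles away from the ribosome, Rps6, the substrate of S6 kinase, and Rps3, which also acts in DNA repair and NF-kappaB signaling, had 0.03 ± 0.09 and 0.02 ± 0.08 with olaparib and -0.13 ± 0.09 and -0.14 ± 0.08 with MNA, or -0.15 and -0.20 without MNA replicate 2, where Rps3 was called lower (adjusted p = 0.0222).

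Of 49 genes for nucleolar assembly and RNA polymerase I, which make and process ribosomal RNA, 27 fell with olaparib against DMSO and none rose, with a median of -0.32, where 12.8% of all genes were called lower and 14.3% higher. These shares, and 12.3% lower and 16.3% higher for MNA, or 26.9% and 27.2% without MNA replicate 2, are the background of the lists that follow as well. Tsr1, a maturation factor of the small subunit, fell from 30.6 ± 0.921 to 21.5 ± 0.807 CPM (-0.51 ± 0.07, adjusted p = 0.000491). The RNA helicase Ddx21 fell from 161 ± 6.58 to 114 ± 2.91 CPM (-0.49 ± 0.09, adjusted p = 0.00324) and Wdr43 from 64.5 ± 4.64 to 43.3 ± 3.77 CPM (-0.58 ± 0.11, adjusted p = 0.00336). With MNA 11 of the 49 fell and 2 rose, with a median of -0.18, and without MNA replicate 2 28 fell and 3 rose. The same DMSO libraries serve both comparisons. Between the treatments none of the 49 was higher with olaparib and 5 were lower, among them Mybbp1a (-0.43 ± 0.08, adjusted p = 0.00235), where 10.9% of all genes were called in each direction. Without MNA replicate 2, 6 were higher and 8 lower, against 21.5% and 20.7%.

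Of 76 mitochondrial ribosomal protein genes, 5 rose and 5 fell with olaparib, with a median of -0.04, and 11 fell with MNA, with a median of -0.08. Without MNA replicate 2, 28 of them were called lower and 6 higher with MNA. Of 21 other mRNAs known to carry a TOP tract, mainly translation factors, 2 fell with olaparib, Hnrnpa1 (-0.38 ± 0.10, adjusted p = 0.014) and Eif3l (-0.23 ± 0.08, adjusted p = 0.0486), and the median was -0.01. With MNA 2 of them fell, Tpt1 from 2127 ± 53.4 to 1641 ± 294 CPM (-0.37 ± 0.11, adjusted p = 0.0264) and Eif3l (-0.28 ± 0.08, adjusted p = 0.0273), and 2 rose, among them Nap1l1 (0.44 ± 0.09, adjusted p = 0.0142). Without MNA replicate 2, 7 were called lower and 5 higher. Of 22 tested regulators of ribosomal protein mRNAs, 6 fell with olaparib and none rose, with a median of -0.21. Among these, Larp1, which binds TOP tracts, fell from 188 ± 5.98 to 151 ± 12.8 CPM (-0.32 ± 0.07, adjusted p = 0.00565), and the transcription factors Yy1 (-0.30 ± 0.07, adjusted p = 0.00847) and Gabpa (-0.26 ± 0.06, adjusted p = 0.0101) fell as well. With MNA 7 of the 22 fell and 1 rose, or 9 and 2 without MNA replicate 2, and those that fell included Rps6kb1, the S6 kinase (-0.30 ± 0.08, adjusted p = 0.0202), Tbpl1 (-0.39 ± 0.10, adjusted p = 0.0219) and Rptor, an mTOR complex subunit (-0.31 ± 0.08, adjusted p = 0.0245). With 1 library left out, the adjusted p of these MNA calls reached 0.0681 for Rps6kb1, 0.0695 for Tbpl1 and 0.0784 for Rptor. It reached 0.0839 for Tpt1, 0.0871 for Eif3l and 0.0522 for Nap1l1 with MNA, and 0.117 for Eif3l with olaparib. For Hnrnpa1, Larp1, Yy1 and Gabpa with olaparib against DMSO it stayed under 0.05. Larp1 had 195 ± 7.78 CPM with MNA and was lower with olaparib than with MNA (-0.37 ± 0.07, adjusted p = 0.00247).

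**Figure D5:**
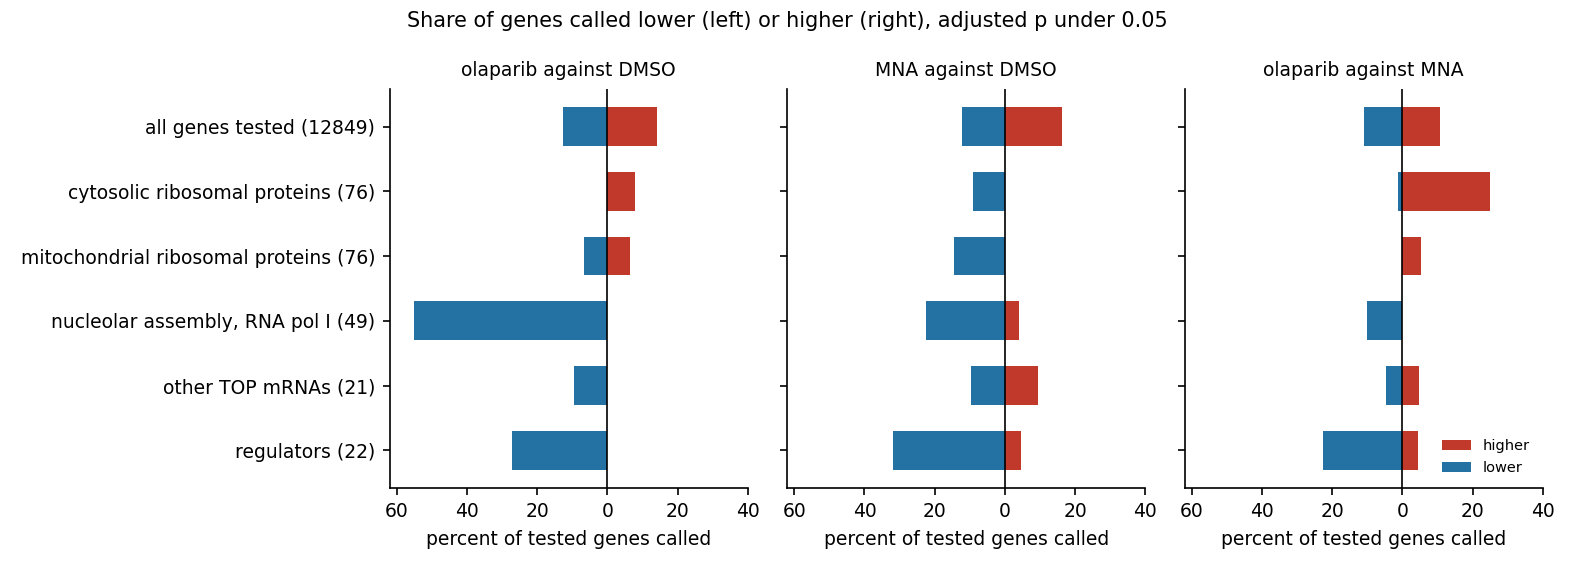
Bars give the percent of tested genes called lower (left of 0) or higher (right of 0) in each comparison with all 12 libraries, with the number of tested genes of each list in parentheses. Of the 76 cytosolic ribosomal protein genes, 6 are called higher with olaparib, where 14.3% of all genes are, and 7 lower with MNA, where 12.3% are. With DESeq2 they have calls in both directions in each of these comparisons. Nucleolar and RNA polymerase I genes have 27 of 49 lower with olaparib, where 12.8% of all genes are.

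Ribosomal proteins that the symbol rule leaves out gave calls in both directions with olaparib and only lower calls with MNA. Of the 7 tested, which included Fau, Rack1, Rpl7l1, Rpl22l1, Rpl36al and Rps3a1, olaparib raised Rpl22l1 and lowered Rpl7l1 (-0.18 ± 0.06, adjusted p = 0.0499). MNA lowered 3, Rps3a1 (-0.31 ± 0.09, adjusted p = 0.0286), Fau (-0.22 ± 0.07, adjusted p = 0.0438) and Rpl7l1 (-0.23 ± 0.06, adjusted p = 0.0232), and without MNA replicate 2 5 of the 7 were called lower. With 1 library left out, adjusted p reached 0.0912 for Rps3a1, 0.12 for Fau and 0.0746 for Rpl7l1 with MNA. With olaparib it reached 0.123 for Rpl7l1, so that call was lost too, and 0.0254 for Rpl22l1. Fau, the precursor of the small-subunit protein eS30, had 402 ± 33.2 CPM in DMSO, 440 ± 7.13 with olaparib and 345 ± 27.2 with MNA. Of 40 tested pseudogenes named with -ps, none was called with olaparib against DMSO, where none had an unadjusted p under 0.05 either, and 2 fell with MNA, or 7 of 42 without MNA replicate 2. Together the -ps pseudogenes held a mean of 0.029% of the gene counts in DMSO, against 3.05% for the 76 genes.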

How the data were processed

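Gene expression was measured by RNA-seq of polyadenylated RNA (a stranded mRNA kit) in 12 libraries, 4 per group, grouped by the treatment in the labels. The authors deposited raw read counts per gene, whole numbers that were not normalized. The submitters' processing notes name STAR 2.5.2b, GRCm38.p5 and mm10, DESeq2 and R 3.6.0, and the strand setting behind the counts is not given in the sources used here. Libraries held 21146291 to 31446849 counts, and counting error is small at the levels of most ribosomal protein genes.

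All 12 libraries were fitted together with edgeR 4.0.16 in R 4.3.3 (filterByExpr with a minimum count of 10 and a minimum total of 15, TMM normalization, quasi-likelihood F test, Benjamini-Hochberg adjustment over all genes tested). A gene was called where the adjusted p was under 0.05. Every adjusted p in the text is from this test, fitted to all 12 libraries without a block unless the text names another fit. Standard errors (SE) are the log2 fold change over the square root of F. CPM were computed from TMM-normalized library sizes. DESeq2 1.42.0 served as an alternative, beside other normalizations, no filter, the 2 groups alone, a replicate block and each library left out in turn. The fits without MNA replicates 1 and 2, and with normalization from other genes without MNA replicate 2, were chosen after seeing the data. Leaving out each library in turn was planned, but MNA replicate 2 was singled out for its values. The code was tested on simulated data. Other tables were made in Python 3.11.15.

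Deviations from the group means correlated across genes between olaparib and DMSO libraries of the same replicate number at r of 0.227, 0.172, 0.225 and 0.408. These values were not compared with those of differently numbered libraries. The main fit did not use the number, and a fit with the number as a block served as an alternative. The labels do not say what the number marks.

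The genes and all lists were chosen with earlier results of these data known. Named were, per comparison, the 5 genes of largest and the 5 of smallest log2 fold change, the 3 highest and the 3 lowest per length in DMSO, all members of the role groups, and up to 3 companion genes per list by smallest p. Other members that were called, among them Rps14, Rpl10a, Rpl17 and Rpl32, were named after their values were seen. Some genes are counted but not reported here by name. Transcript lengths, 31-base word sharing, snoRNAs and overlaps came from GENCODE M21 (GRCm38), and start windows from RefSeq (GRCm38.p6).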

Additional observations from a re-analysis of the deposited data

Results flagged for a closer look

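In 114 sets of 4 libraries (the genes described, in each group), the highest or the lowest library stood apart from the other 3 in 11, by a gap that exceeded Dixon's critical share of the group's range for 4 libraries. Chance alone gives about 1 in 20 for independent sets. The genes here come from the same libraries, so the 11 cannot be set against that rate. Of the 11, 8 fell in the MNA group, and 5 of these were high values of replicate 2. Rps7 had 414.6 CPM there against 290.2 to 310.2 in the other MNA libraries, Rps4x had 713.7 against 568.4 to 588.9, and Rps15a had 332.7 against 244.6 to 258. Rpsa had 1259 CPM against 943.8 to 960.9, and Rpl12 had 742.3 against 492.3 to 510.5. The other 3 were low values of MNA replicate 1, Rpl22 at 112.5 CPM against 143.6 to 146.9, Rplp2 at 224.2 against 311.3 to 327.2, and Rps27 at 95.33 against 153.2 to 165. In olaparib libraries Rpl12 had 623.1 CPM in replicate 3 against 664.5 to 667.2, Rpl38 had 133.9 in replicate 1 against 118.5 to 120.8, and Rplp1 had 508.6 in replicate 2 against 533.7 to 538.5.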

How the results depend on the processing

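No value changed sign under any of 24 alternatives where it was called with or without that alternative. Of 2736 values of named genes compared with those of the whole set of libraries, 2410 stayed on their side of the threshold, 199 newly passed it and 127 no longer passed, and 91 had the opposite sign, all of them values that were not called either way, such as Rpl23a and Rpl35. Counts of called genes moved far more. The share of all genes called moved too. For olaparib against DMSO, 14.3% were called higher with all 12 libraries, 16.8% with DESeq2 and 22.5% without MNA replicate 2. For MNA against DMSO, 12.3%, 15.7% and 26.9% were called lower in those fits. Olaparib exceeded MNA for 10.9% with all 12 libraries, 21.5% without MNA replicate 2 and 19% without MNA replicates 1 and 2. Counts from fits whose share over all genes is not given cannot be set against other genes. Against DMSO, the 6 genes called higher with olaparib became 18 with the 2 groups alone, 10 with DESeq2, 3 with no filter, and 18 without MNA replicates 1 and 2, and those called lower (0) became 2, 1, 0 and 5. With 1 library left out they ranged from 2 to 13 higher (2 without DMSO replicate 3 or 4 or olaparib replicate 1, 3 or 4, 13 without MNA replicate 2) and from 0 to 3 lower, with medians of 0.0296 to 0.121. The 7 genes called lower with MNA became 0 with the 2 groups alone, 17 with DESeq2, 4 with total counts alone and 27 without MNA replicates 1 and 2, and those called higher (0) became 1 with DESeq2 and 6 without MNA replicates 1 and 2. With 1 library left out they ranged from 0 to 38 lower (0 when DMSO replicate 2 or 3, or MNA replicate 1, 3 or 4, was omitted, 38 without MNA replicate 2) and from 0 to 5 higher, with medians of -0.19 to -0.08. The 19 genes higher with olaparib than with MNA became 7 with the 2 groups alone, 31 with DESeq2, 11 with no filter, 12 with total counts alone and 36 without MNA replicates 1 and 2, where 3 were lower, and ranged from 8 (without olaparib replicate 1) to 47 (without MNA replicate 2) higher, with 1 lower and medians of 0.18 to 0.30. With normalization from other genes and without MNA replicate 2, the counts were 13 higher and 3 lower, 4 higher and 38 lower, and 47 higher in the 3 comparisons in that order. The cause of these changes was not tested, except that fewer libraries enter some fits. With the replicate number as a block, the counts were 2 higher for olaparib against DMSO, 12 lower for MNA against DMSO and 17 higher for olaparib against MNA. With the block and without MNA replicate 2 they were 16 higher and 2 lower, 4 higher and 37 lower, and 48 higher. Same-numbered MNA libraries correlated in their deviations with DMSO and olaparib libraries at r of -0.009 to 0.277 and 0.070 to 0.392, over 0.1 in 3 of the 4 numbers each. Outside the block fits no libraries were treated as paired. The share of counts was 0.328%, 0.325% and 0.278% in DMSO, olaparib and MNA when only the 9 genes with under 10% shared words were summed, and with 1 library left out 3.004% to 3.11%, 3.12% to 3.23% and 2.68% to 2.92% for all members. Depth limited values only for genes near the count minimum.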
